A study of Mus musculus with 5 samples.

Results

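Inguinal white adipose tissue (iWAT) of floxed mice given triiodothyronine (T3) was compared with iWAT of floxed mice given vehicle, gene by gene. A gene entered the comparison when it reached 1 FPKM in the higher of the 2 libraries, and 15031 of the 53700 genes of the deposited table did so. FPKM counts sequenced fragments per kilobase of transcript, scaled to the size of the library, so levels are per length. The study measured RNA by sequencing in 5 libraries of mouse iWAT, 1 for each of 5 groups, to follow the part of the adipocyte thyroid hormone receptor β (TRβ). The floxed vehicle group received 7 daily injections of phosphate-buffered saline and the floxed T3 group 7 daily injections of T3, both on normal food, and tissue was taken 24 h after the last injection. Another group with the same T3 schedule is labelled ATRβKO, an adipocyte knockout of TRβ, and its values are set beside the others as the same table holds them. Each of these 3 libraries was made from the pooled iWAT of 3 mice. Floxed mice are the controls that lack the knockout. The Cre driver, the ages and the T3 dose are not given in the sources used here. The high-fat diet libraries of the series were not used.

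T3 is the form of thyroid hormone that binds its nuclear receptors, TRα and TRβ. These receptors sit on DNA with retinoid X receptors, and hormone binding exchanges corepressors for coactivators. In fat, thyroid hormone is known for driving fatty acid synthesis, fuel oxidation and heat production, and inguinal fat is the classic subcutaneous depot in which beige adipocytes appear. The inguinal depot of the mouse also surrounds a lymph node and lies against skeletal muscle, so bulk tissue holds RNA of several cell types.

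With 1 pooled library a group there was no spread between animals, no test and no p-value. Calls rest on size only: the ratio of FPKM plus 1 had to reach 2-fold in either direction, a log2 ratio of 1 or -1. By that rule 346 genes were higher with T3, which is 2.3% of those compared, and 598 were lower, which is 3.98%. Together they make 6.28%, the background against which counts over gene lists are read. The log2 ratio of all genes had its median at -0.21, and the central 90% of genes lay between -0.91 and 0.60. This shift depends on scaling. Rescaling to a median of 0 gave 494 higher and 424 lower genes, trimmed means of M values gave 506 and 422, and a common total gave 311 and 670. Medians of gene lists, always of the log2 ratio, are therefore read against -0.21. Calls were densest among weak genes, at 11.1% for a mean of 0.5 to 5 FPKM against 3.59% for 5 to 50, 5.68% for 50 to 500 and 7.53% above 500 FPKM. Among the 944 called genes 283 were listed at 0 in 1 of the libraries.

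The steps of 1 fragment in single-exon genes gave a rough depth of 17.2 M fragments for vehicle and 18.7 M for T3. At that depth 1 FPKM on a transcript of 1 kb stands for about 13 fragments in each library. The labelled tissue was checked on fixed markers. Adipocyte markers (Adipoq, Plin1, Cidec, Lep, Fabp4, Cfd) summed to 24609 FPKM in vehicle, 18184 with T3 and 22265 in the library labelled ATRβKO. Cfd and Fabp4 made up most of that sum, and they went apart. Cfd was at 11233 FPKM in vehicle and 4783 with T3, and Fabp4 at 10033 and 11288. Adipoq was at 1498 and 781 FPKM, Lep at 232 and 140, and Plin1 at 635 and 577. Mammary epithelial markers summed to between 1.1 and 2.4 FPKM. Skeletal muscle markers summed to 1508 FPKM in vehicle, 318 with T3 and 1423 in the library labelled ATRβKO. Muscle marker RNA was thus lower in the floxed T3 library than in both others. In bulk tissue, fewer cells of a type and less RNA per cell cannot be told apart.

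Thrb (ENSMUSG00000021779), the gene of TRβ, was at 4.44 FPKM in vehicle, 4.43 with T3 and 4.26 in the library labelled ATRβKO. The gene-level value therefore does not check that label. Thra (ENSMUSG00000058756), which encodes TRα, was at 50.4 and 32.7 FPKM, a log2 ratio of -0.61, short of 2-fold. Of 16 genes for receptor partners, coregulators, transporters and hormone metabolism, 0 were higher and 0 were lower by the size rule, and the list median was -0.30. The retinoid X receptor genes Rxra and Rxrg were at 40.8 and 8.59 FPKM in vehicle and at 32.8 and 10.2 FPKM with T3.

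Among genes outside lipogenesis, muscle and Ucp1, the 12 with the highest ratio at 5 FPKM or more held secreted proteins, transporters and enzymes of lipid handling. Angptl8, a secreted regulator of lipoprotein lipase, was at 11.4 FPKM in vehicle and 62.5 with T3, 5.47-fold higher. It was at 15.9 FPKM in the library labelled ATRβKO. Aspg, an asparaginase, was at 7.03 and 42.5 FPKM, 6.05-fold higher with a 95% counting interval of 4.37 to 8.55, and at 8.42 in the library labelled ATRβKO. Kng2, a kininogen from which bradykinin is cut, was at 1.63 and 11.5 FPKM. Its counting interval of 4.94- to 10.4-fold rests on about 34 fragments in vehicle. Slc2a5, the fructose transporter GLUT5, was at 6.01 and 27.1 FPKM. Hephl1, a copper-dependent ferroxidase, was at 0.66 and 5.85 FPKM. The intervals come from the approximate fragment numbers and cover counting error only, not differences between mice.

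The other genes of that end were of several kinds. Acot11, an acyl-CoA thioesterase of brown fat, was at 3.64 and 17.6 FPKM, and Cox7a1, a cytochrome c oxidase subunit of heart, muscle and brown fat, at 55.2 and 259 FPKM. Nos1ap, an adaptor of neuronal nitric oxide synthase, was at 7.00 and 31.5 FPKM and at 14.1 FPKM in the library labelled ATRβKO. Tlcd2, a membrane protein that shapes phospholipid composition, was at 6.36 and 28.1 FPKM with 12.0 FPKM in that library. Hotairm1, a noncoding RNA of the HoxA cluster, stood at 2.53, 13.3 and 4.24 FPKM. Iigp1, an interferon-inducible GTPase, stood at 23.3, 98.7 and 31.3 FPKM. In these 6 genes the floxed T3 library was the highest of the 3.

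**Figure D1:**
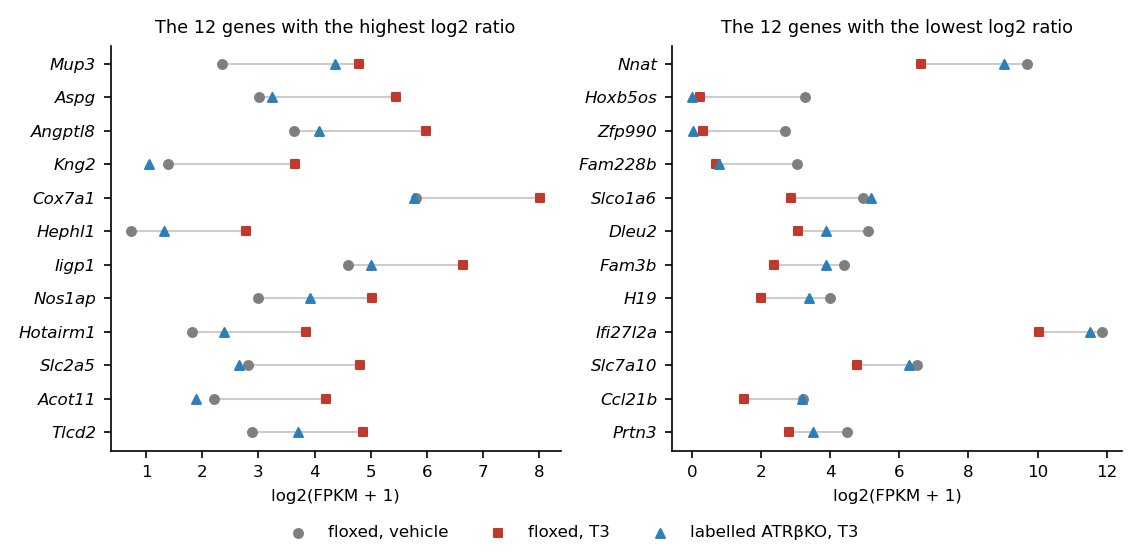
Levels of the 12 genes with the highest and the 12 with the lowest log2 ratio (T3 over vehicle, floxed) at 5 FPKM or more, outside lipogenesis, muscle and Ucp1. The x axis is log2(FPKM + 1), each point is 1 pooled library, and the grey line joins floxed vehicle to floxed T3. Angptl8 moves from 11.4 to 62.5 FPKM and Nnat from 829 to 98.1 FPKM, while the library labelled ATRβKO lies near vehicle for Cox7a1 and near floxed T3 for Mup3.

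At the other end stood imprinted genes, transporters and immune transcripts. Nnat, an imprinted gene whose membrane protein neuronatin is found in fat, was at 829 FPKM in vehicle and 98.1 with T3, 8.45-fold lower with a counting interval of 7.92 to 9.03. In the library labelled ATRβKO it was at 517 FPKM. H19, an imprinted noncoding RNA, was at 15.0, 2.98 and 9.50 FPKM in the same order. Slc7a10, the neutral amino acid transporter Asc-1 of white adipocytes, was 3.45-fold lower, at 90.4 FPKM in vehicle and 26.2 with T3, and at 75.8 FPKM in the library labelled ATRβKO. Slco1a6, an organic anion transporter, was at 29.7, 6.23 and 35.0 FPKM. Fam3b, a secreted cytokine-like protein, was at 19.9, 4.16 and 13.8 FPKM.

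Ifi27l2a, an interferon-induced gene and the most abundant of these 12, was at 3703 FPKM in vehicle and 1052 with T3. Ccl21b, a chemokine of lymphoid tissue whose near-identical copies can share its reads, was at 8.27 and 1.81 FPKM, and Prtn3, a neutrophil protease, at 21.4 and 5.96 FPKM. Dleu2, a noncoding RNA that hosts microRNAs, was at 32.9 and 7.27 FPKM. Hoxb5os, Zfp990 and Fam228b differed in another way. They stood at 8.60, 5.48 and 7.19 FPKM in vehicle, at 0.17, 0.25 and 0.62 with T3, and at 0, 0.02 and 0.72 in the library labelled ATRβKO, so vehicle stood apart from both other libraries.

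The major urinary protein (Mup) genes, lipocalins that carry pheromones and are made mainly in liver, stood high as a family. Of 13 members compared (22 symbols looked for), 11 were higher by the size rule and 0 lower. Their median was 1.39 and stayed between 1.33 and 1.58 under 5 rescalings. Mup18, the most abundant, was at 3170 FPKM in vehicle and 8327 with T3. Mup22 was at 1416 and 3453 FPKM, and Mup10 at 230.0 and 524 FPKM. At the other extreme Mup17 was at 1.11 and 4.76 FPKM. Mup3 had the largest ratio of the family, at 4.09 and 26.9 FPKM. Mup14 and Mup7, both at a log2 ratio of 0.95, were the members short of 2-fold. The library labelled ATRβKO held 11579 FPKM of Mup18, 5098 of Mup22 and 761 of Mup10, above both floxed libraries, and 19.5 FPKM of Mup3. Mup genes are near-identical copies on 1 chromosome, so the split of reads among them, and each single value, is uncertain. Among other lipocalins Orm1 and Orm3, acute-phase glycoproteins, were at 243 and 9.12 FPKM in vehicle and 368 and 17.7 with T3, whereas Apod was at 93.0 and 47.3 FPKM.

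The promoter windows of 2 abundant Mup genes are shown because the family shared 1 short motif. RefSeq windows span a gene's start on GRCm38.p6 and are printed 5′ to 3′ on the gene's strand. The motif was TTATGNAA, a loose form of the D-box of DBP, TEF and HLF in which N stands for any base. It was found on either strand in 10 of the 11 Mup genes with a window (90.9%). Among all compared genes with a window it was found in 285 of 10823 (2.63%). Capitals mark it, and both windows shown match as TTATGAAA. Whether DBP, TEF or HLF bind TTATGAAA was not tested. Mup18 lies at chr4:61674045-61674344 and Mup10 at chr4:60582106-60582405, both on the minus strand.
Mup18: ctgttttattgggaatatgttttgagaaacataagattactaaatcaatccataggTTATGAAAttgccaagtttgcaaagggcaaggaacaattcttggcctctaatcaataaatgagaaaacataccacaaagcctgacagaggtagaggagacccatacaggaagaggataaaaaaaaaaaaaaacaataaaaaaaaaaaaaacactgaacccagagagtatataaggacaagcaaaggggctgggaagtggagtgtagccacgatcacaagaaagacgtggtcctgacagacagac
Mup10: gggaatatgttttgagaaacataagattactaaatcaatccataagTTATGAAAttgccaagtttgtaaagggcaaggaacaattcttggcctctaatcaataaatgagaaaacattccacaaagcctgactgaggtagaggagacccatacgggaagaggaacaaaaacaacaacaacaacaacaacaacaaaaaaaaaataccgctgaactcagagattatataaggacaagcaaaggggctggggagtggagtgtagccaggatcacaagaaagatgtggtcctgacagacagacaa
These windows are copies of one another in large part, so the shared motif is not 10 separate observations. The motif was chosen after the values were seen, and a match describes letters only. The receptor half-site AGGTCA was found on either strand in 19.4% of higher genes with a window, in 17.9% of lower ones and in 15.1% of all. A direct repeat of it with 4 bases between the copies was found in 0 windows.

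Outputs and repressors of the circadian clock stood low with T3. On the whole list of 26 clock and clock output genes 7 were lower (26.9%, against 3.98% of all genes) and none higher. That list's median was -0.43, and its lower count ran from 0 to 7 under rescaling. Of 14 outputs and repressors, chosen after their values were seen, 6 passed the size rule as lower and none as higher, and their median was -0.82. The 6 lay between -1.16 and -1.09, so the count went to 0 under some rescalings while the median stayed between -0.88 and -0.61. Dbp, a clock-driven transcription factor that binds the D-box, was at 116 FPKM in vehicle and 53.8 with T3. Hlf, of the same family, was at 9.58 and 3.81 FPKM, and Tef, also of that family, at 72.7 and 41.0 FPKM, short of 2-fold. The period genes Per1 and Per3, repressors in the clock's feedback loop, were at 28.9 and 26.2 FPKM in vehicle and 13.04 and 11.4 with T3. Ciart, another repressor, was at 5.80 and 2.18 FPKM, and the deubiquitinase gene Usp2 at 7.05 and 2.60 FPKM. Bhlhe40 was the only member of the group with a higher value, at 33.8 and 39.5 FPKM. The activators Clock and Rora were at 6.52 and 5.03 FPKM in vehicle and 7.71 and 5.26 with T3. The library labelled ATRβKO was at 85.6 FPKM for Dbp, 25.4 for Per1 and 19.8 for Per3, between the floxed libraries. The hour of tissue collection is given in the labels only as an interval after the last injection, so its part in these values was not tested. Tsc22d3, a glucocorticoid-induced gene on the same list, was at 92.9 and 44.6 FPKM.

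The E-box CACGTG, which CLOCK and BMAL1 bind, was found on either strand in 5 of the 12 genes of this group with a window (41.7%), against 11.4% of all genes with a window. Ciart and Per1 are shown, Ciart because it holds 3 copies. Per1 is shown because it also matches the loose D-box on the strand shown, as ttatgcaa. Capitals mark the E-boxes. Ciart lies at chr3:95882179-95882478 on the minus strand and this Per1 window at chr11:69098699-69098998 on the plus strand.
Ciart: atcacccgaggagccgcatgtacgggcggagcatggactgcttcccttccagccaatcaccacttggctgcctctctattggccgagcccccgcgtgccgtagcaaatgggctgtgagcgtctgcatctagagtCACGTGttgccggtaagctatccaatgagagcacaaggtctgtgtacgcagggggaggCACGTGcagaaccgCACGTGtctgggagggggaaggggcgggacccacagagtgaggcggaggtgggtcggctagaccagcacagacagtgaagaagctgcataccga
Per1: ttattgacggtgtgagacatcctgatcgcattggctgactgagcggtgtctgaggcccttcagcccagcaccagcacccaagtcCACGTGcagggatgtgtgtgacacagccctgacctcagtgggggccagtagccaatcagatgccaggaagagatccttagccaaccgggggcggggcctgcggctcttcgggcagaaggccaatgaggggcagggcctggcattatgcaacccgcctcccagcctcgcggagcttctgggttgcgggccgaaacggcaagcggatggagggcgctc
Among all higher genes with a window 10.4% held an E-box, and among all lower genes 8.33%. This motif too was chosen after the values were seen.

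**Figure D2:**
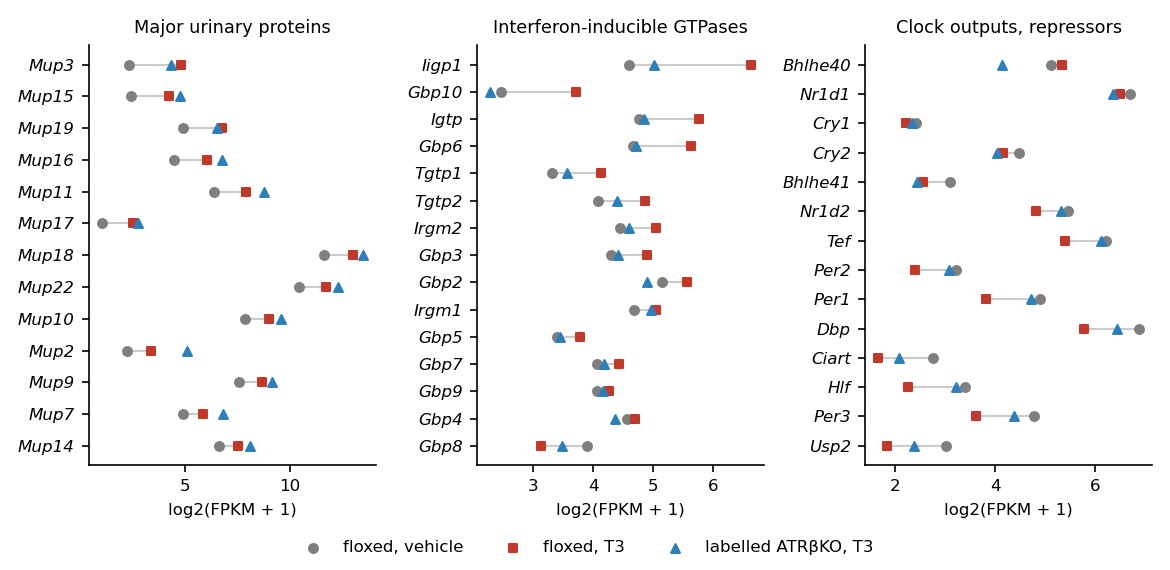
Levels of the compared members of 3 families in floxed vehicle, floxed T3 and the library labelled ATRβKO (T3), as log2(FPKM + 1), with 1 point for each pooled library and genes ordered by their log2 ratio. With the values as deposited all 13 Mup genes lie to the right of vehicle with T3, 14 of 15 GTPases do so, and 13 of 14 clock outputs and repressors lie to the left, and no family's median changes sign under rescaling.

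Structural subunits of the respiratory chain had list medians above that of all genes, and most members stayed short of 2-fold. Complex I, which oxidises NADH, had its median at 0.46 over 39 genes, of which 37 were above 0 and none reached 2-fold. Complexes II and III had a median of 0.71, with all 14 above 0. Their values ran from Uqcrh at 427 and 585 FPKM to Cycs, the mobile electron carrier cytochrome c, at 48.6 and 90.8 FPKM. Cytochrome c oxidase had a median of 0.60 over 14 subunits, of which 3 were below 0 and 2 were higher by the size rule. These are Cox7a1, above, and Cox8b, another heart and brown fat isoform, at 254 and 677 FPKM. Cox6a2, a muscle isoform, was at 9.18 and 4.97 FPKM. ATP synthase had a median of 0.48 over 17 members, 4 of them below 0, with Atp5b, its catalytic subunit, at 1712 and 2602 FPKM. In the library labelled ATRβKO, Atp5b was at 1509, Cycs at 45.6 and Cox8b at 169 FPKM, below both floxed libraries.

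Genes that build and maintain mitochondria stood closer to the rest. Mitochondrial ribosomal proteins had their median at 0.14 over 78 genes, respiratory assembly factors 0.16 over 50, and protein import 0.10 over 24. The 1 call among these 3 lists was Mrpl52, of the mitochondrial ribosome, at 248 FPKM in vehicle, 121 with T3 and 139 in the library labelled ATRβKO. Genes of mitochondrial DNA upkeep and transcription had a median of -0.17 over 28, near that of all genes, and it changed sign under rescaling, from -0.22 to 0.03. Dguok, which supplies nucleotides for mitochondrial DNA, was at 39.6 and 25.5 FPKM. Mitochondrial chaperones and proteases had their median at 0.18 over 20 genes, with none past 2-fold. Hspd1 (HSP60) and Hspa9, matrix chaperones, were at 131 and 156 FPKM in vehicle and 205 and 241 with T3. In coenzyme Q synthesis the median was 0.29 over 13 genes. Coq8a, a kinase-like regulator of the pathway, was at 31.2 and 62.1 FPKM, and Coq7 at 33.9 and 59.0 FPKM, both short of 2-fold. Coq4 and Coq10a were at 9.61 and 22.8 FPKM in vehicle and 8.96 and 21.7 with T3. Whether muscle RNA, which was lower in the floxed T3 library, bears on these lists was not tested.

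**Figure D3:**
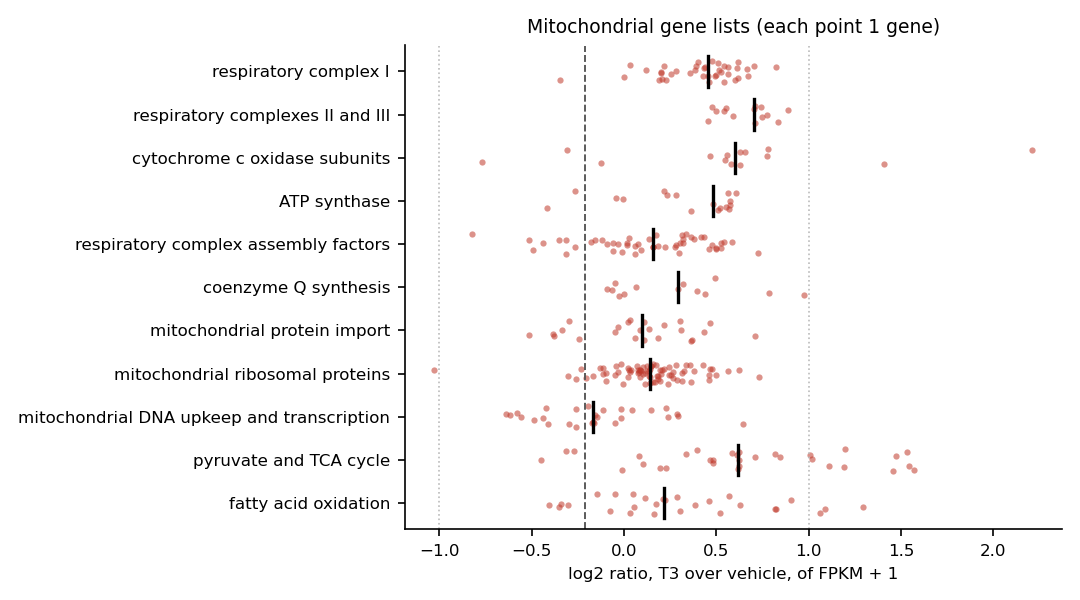
Log2 ratio (T3 over vehicle, floxed, FPKM + 1) of every compared member of 11 mitochondrial lists, 1 point a gene, with a black bar at each list's median, a dashed line at the median of all genes (-0.21) and dotted lines at 2-fold. Complexes II and III sit at a median of 0.71, mitochondrial ribosomal proteins at 0.14 and mitochondrial DNA upkeep at -0.17.

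Downstream of pyruvate, the size rule called 10 of 32 genes of pyruvate use and the TCA cycle higher and none lower (8 to 12 under rescaling), and the list's median was 0.62. Within it 6 of 7 genes of the pyruvate carrier and dehydrogenase were called (4 to 6 under rescaling), around a median of 1.46. Mpc2, a subunit of the carrier that brings pyruvate into mitochondria, was at 152 and 419 FPKM, and Dld, shared with other dehydrogenases, was the member short of 2-fold at 109 and 167 FPKM. Suclg1, a succinyl-CoA ligase subunit, was at 94.8 and 218 FPKM, and Idh3a, of the NAD-linked isocitrate dehydrogenase, at 134.4 and 291. Pdk4, a kinase that switches pyruvate dehydrogenase off, was also higher, at 33.2 and 93.9 FPKM. Idh2 and Me2 were at 93.3 and 16.9 FPKM in vehicle and 77.1 and 12.1 with T3. In the library labelled ATRβKO, Idh3a was at 125 and Pdk4 at 38.1 FPKM.

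In the oxidative pentose phosphate branch, which makes NADPH, and transketolase, 3 of 7 genes were higher and all 7 had a ratio of 0 or more. G6pdx, its first enzyme, was at 64.8 and 146 FPKM, Pgd at 158 and 402, and Tkt at 563 and 1472. Over the whole list of pentose phosphate, hexosamine and fructose genes 13 of 26 were above 0 and 13 below, around a median of -0.01 that changed sign under rescaling. Pgm3 and Ogt, of the hexosamine branch, were at 7.32 and 65.0 FPKM in vehicle and 5.02 and 49.0 with T3. Khk, the fructokinase, was at 17.5 and 11.6 FPKM although Slc2a5 was higher. The neuronal-type transporter Slc2a3 was the only lower gene of glucose uptake and glycolysis, at 8.38 and 3.59 FPKM, against 4 of 27 higher (2 to 7 under rescaling). Eno1 was among these at 279 and 576 FPKM, but a retrocopy can share its reads. In glycogen metabolism 4 of 23 genes were higher (17.4%, against 2.3% of all genes) and 0 lower. Besides the synthase Gys2 and the phosphorylase Pygl, these were Ppp1r3b, which targets phosphatase to glycogen, at 13.1 and 39.1 FPKM, and Gbe1, the branching enzyme, at 60.2 and 131 FPKM. Pygb, the brain phosphorylase, was at 71.7 and 48.0 FPKM.

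In fatty acid oxidation 3 of 28 genes passed 2-fold, all higher (2 to 6 under rescaling), and the median was 0.22. Cpt1b, the muscle and brown fat carnitine palmitoyltransferase, was at 14.2 FPKM in vehicle, 36.2 with T3 and 5.42 in the library labelled ATRβKO, whereas Cpt1a, the liver form, was at 19.5, 17.5 and 23.1. Hadhb and Acaa2, which complete the oxidation spiral, were at 242 and 121 FPKM in vehicle and 517 and 253 with T3. In triglyceride assembly and fatty acid uptake 5 of 40 were higher by size (12.5%, against 2.3% of all genes). There 1 was lower (2.5%, against 3.98%). Agpat2, an acyltransferase of triglyceride synthesis, was at 281 and 666 FPKM, and Gpd2, the mitochondrial glycerol-3-phosphate dehydrogenase and a classic thyroid hormone target of rat liver, at 25.9 and 82.4 FPKM with 23.8 FPKM in the library labelled ATRβKO. The fatty acid binding proteins Fabp3 and Fabp5 were at 8.96 and 206 FPKM in vehicle and 24.9 and 504 with T3. The lower gene was Gpat3, a glycerol-3-phosphate acyltransferase of fat, at 39.5 and 18.9 FPKM, while its mitochondrial relative Gpam was at 35.8 and 63.8. Lpl, lipoprotein lipase, was at 1273 and 981 FPKM. On a list of 22 genes that respond to T3 in other tissues, 2 were higher and 2 lower (9.09% each), and 15 were below 0. That list's median of -0.17 was near that of all genes and changed sign under rescaling.

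Lipid droplet proteins also divided. Plin2, a coat protein of many cell types, was higher at 195 and 502 FPKM. Plin4, a coat protein of white adipocytes, was lower at 447 and 221 FPKM, a log2 ratio of -1.01 that lost the 2-fold mark under some rescalings. Cidec, which enlarges droplets, was at 978 and 616 FPKM, and its relative Cidea at 106 and 162 with 35.6 FPKM in the library labelled ATRβKO. The list of 28 lipolysis and droplet genes had 1 higher and 1 lower (3.57% each), near the 2.3% and 3.98% of all genes. Its median was -0.07, which changed sign under rescaling.

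On the whole list of cholesterol synthesis 5 of 34 genes were higher (14.7%, against 2.3% of all genes) and 0 lower. There 22 were above 0 and 12 below, around a median of 0.44. Enzymes of synthesis and genes of efflux were also grouped after their values were seen. Of 20 enzymes of the synthetic pathway 5 were higher (5 to 10 under rescaling) and 18 had a ratio above 0. Their median was 0.78, and 0.72 to 1.01 under rescaling. Pmvk, phosphomevalonate kinase, was at 46.5 and 116 FPKM, Nsdhl at 18.4 and 46.9, and Lss, lanosterol synthase, at 7.00 and 18.2. Acat2, which makes acetoacetyl-CoA, was at 42.0 and 103 FPKM. The 6 genes grouped as sterol efflux and oxysterol receptor targets had a median of -0.52, with none past 2-fold. The cholesterol exporters Abca1 and Abcg1 were at 32.9 and 13.6 FPKM in vehicle and 23.7 and 8.59 with T3. Soat1, which esterifies cholesterol, was at 8.25 and 4.77 FPKM.

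Amino acid genes gave few calls. In branched-chain amino acid breakdown 0 of 30 were higher or lower, though Bcat2, its first enzyme, was at 111 and 67.7 FPKM and Ivd at 108 and 73.2. Among 33 genes of glutamine, arginine, proline and polyamines the median was -0.33. There 3.03% were higher and 3.03% lower, near the 2.3% and 3.98% of all genes. Slc7a10, above, was the lower gene and Slc38a3, a glutamine transporter, the higher one at 0.68 and 2.58 FPKM, while its relative Slc38a1 was at 9.02 and 5.00 FPKM. In antioxidant defence 1 of 39 genes was higher (2.56%, near the 2.3% of all genes) and 0 lower, with a median of 0.14. This was Srxn1, sulfiredoxin, at 13.5 and 33.2 FPKM, and next to it stood Gpx4, which reduces lipid peroxides, at 562 and 1057, short of 2-fold.

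**Figure D4:**
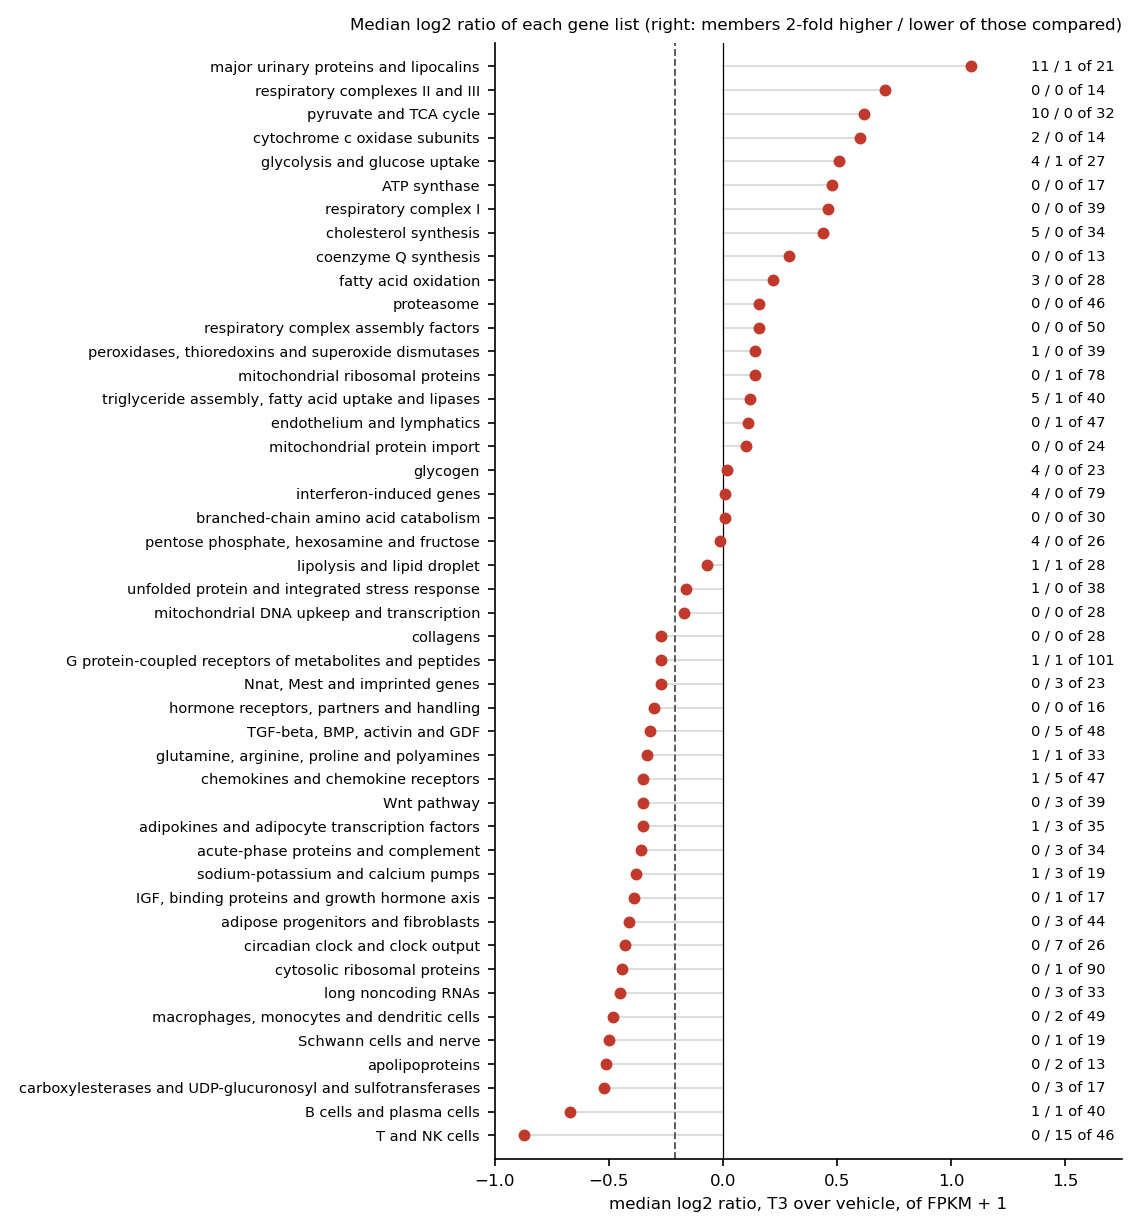
Median log2 ratio (T3 over vehicle, floxed, FPKM + 1) of 46 gene lists, ordered by it, with the number of members 2-fold higher and lower of those compared at the right and a dashed line at the median of all genes (-0.21). Major urinary proteins and lipocalins lie at the top with 1.09, and T and NK cell genes at the bottom with -0.87.

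Abundant products of white adipocytes differed among themselves. Fabp4, the main fatty acid binding protein of fat, was at 10033 FPKM in vehicle and 11288 with T3, while several others were lower. Cfd, the complement factor adipsin, was 2.35-fold lower, at 11233 FPKM in vehicle, 4783 with T3 and 8279 in the library labelled ATRβKO. Car3, a carbonic anhydrase that makes up much of white fat protein, was at 7257, 2791 and 6395 FPKM in the same order. Cyp2e1, an ethanol-oxidising cytochrome P450, was at 987, 308 and 905 FPKM. Apoe, an apolipoprotein of lipid transport, was at 6456, 3437 and 5749 FPKM and short of 2-fold, as was Hp, haptoglobin, at 1325, 681 and 1065 FPKM. In these 5 genes floxed T3 was the lowest library. The complement genes C4b and C7 were at 499 and 41.7 FPKM in vehicle and 235 and 17.9 with T3. These 3 complement genes, Cfd included, were the lower ones among 34 acute-phase and complement genes (8.82%, against 3.98% of all genes). None of that list was higher, and the lower count ran from 0 to 4 under rescaling. Among 35 genes listed as adipokines and adipocyte transcription factors 3 were lower and 1, Apln, was higher. The lowest, at a log2 ratio of -3.07, was Nnat, which is counted again among the imprinted genes below. Retn, the adipokine resistin, was at 792 and 791 FPKM and the master regulator Cebpa at 258 and 239 FPKM. The UDP-glucuronosyltransferases Ugt1a6a and Ugt1a6b, which share exons and can share reads, were at 29.0 and 19.2 FPKM in vehicle and 8.60 and 7.67 with T3.

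Of 23 imprinted genes 3 were lower and 0 higher. Besides Nnat and H19 this was Meg3, a noncoding RNA, at 39.96 and 18.1 FPKM and 49.6 in the library labelled ATRβKO. Mest, a gene linked to fat expansion in mice, had the highest ratio of the list at 8.32 and 15.2 FPKM, short of 2-fold. Their median of -0.27 was near that of all genes. Among 33 long noncoding RNAs Dleu2, H19 and Meg3 were lower, and the median was -0.45.

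Among secreted signals and receptors, pairs of ligand and receptor were read together. Apln, the peptide apelin, was at 1.39 and 5.49 FPKM, and its receptor Aplnr, an endothelial protein, at 10.8 and 22.2, short of 2-fold. Oxtr, the oxytocin receptor, was at 2.04 and 5.99 FPKM. P2rx5, an ATP-gated channel of brown adipocytes, was at 6.30 and 17.1 FPKM and Otop1, a proton channel of brown fat, at 6.08 and 22.1. Kcnk3, a potassium channel that limits heat production in mice, was at 15.7 and 31.8 FPKM. In the library labelled ATRβKO these stood at 2.31 for Apln, 2.60 for Oxtr, 4.71 for P2rx5, 4.31 for Otop1 and 11.3 for Kcnk3. Single brown fat genes do not stand for a whole list. Among 34 uncoupling protein relatives and heat genes other than Ucp1, 8 were higher (23.5%, against 2.3% of all genes) and 1 lower. Of that list 19 were above 0 and 15 below, around a median of 0.34. Of 19 sodium, potassium and calcium pumps and regulators 1 was higher and 3 were lower. The lower ones were Atp2a1, Mrln and Pln, the calcium pump of muscle and its regulators, with Atp2a1 at 150 and 42.0 FPKM beside the muscle marker sums above.

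In the TGF-β, Wnt and IGF lists the calls were lower ones, at 10.4%, 7.69% and 5.88% of members against 3.98% of all genes. Of 41 genes of the VEGF, PDGF, angiopoietin and ANGPTL list 2 were higher (4.88%, against 2.3% of all genes) and 0 lower. The highest of that list was Angptl8, above, at a log2 ratio of 2.35. Of 48 genes of TGF-β, BMP, activin and GDF signalling 5 were lower around a median of -0.32, not far from that of all genes. Inhbb, an activin subunit made by adipocytes, was at 13.8 and 5.44 FPKM, Bmp4 at 5.39 and 2.17, and Id2, a target of BMP signals, at 31.5 and 13.4. In the Wnt pathway 3 of 39 were lower. Sfrp2, a secreted Wnt antagonist of progenitors, was at 33.0 and 11.2 FPKM, while Tcf7 and Lef1, which T cells also express, were at 40.2 and 11.3 FPKM in vehicle and 16.9 and 5.10 with T3. In the growth hormone and IGF axis Igfals was lower, at 10.9 and 4.65 FPKM, and 16 of 17 members had a ratio below 0. Under some rescalings these counts went down to 0, 1 and 0.

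T and NK cell genes had a median of -0.87, the lowest of the 46 lists plotted by median, and all 46 compared members had a ratio below 0. By the size rule 15 were lower, and that count ran from 3 to 20 under 5 rescalings. Cd3d, of the T cell receptor complex, was at 17.6 FPKM in vehicle, 6.93 with T3 and 14.9 in the library labelled ATRβKO. Il7r, a receptor for T cell survival, was at 22.02, 9.01 and 16.0 FPKM. B and plasma cell genes, 40 in all, lay around -0.67. The lower one by size was the immunoglobulin gene Ighg2c, at 13.1 and 4.70 FPKM. Pax5, which specifies B cells, was at 22.2 and 11.8 FPKM and Ms4a1 (CD20) at 32.7 and 22.4. The higher gene, Iglc1, was listed at 0 in vehicle. For macrophages, monocytes and dendritic cells the median was -0.48. By the size rule 4.08% were lower, near the 3.98% of all genes, or 2 of 49 (0 to 2 under rescaling). Trem2 and Spp1, of lipid-associated macrophages, were these, at 20.5 and 10.9 FPKM in vehicle and 9.19 and 4.61 with T3. Summed macrophage markers were 216 FPKM in vehicle, 148 with T3 and 274 in the library labelled ATRβKO.

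On the whole list of 47 chemokines and chemokine receptors the median was -0.35, with 11 above 0. There 5 were lower (10.6%) and 1 was higher (2.13%). Among 8 lymphoid tissue chemokines and receptors, chosen after their values were seen, all had a ratio below 0. Of these 8, 4 were lower by the size rule, 1 to 5 under rescaling. Their median was -1.06. Ccl19 and Ccl21a, which draw T cells and dendritic cells into lymph nodes, were at 62.0 and 348 FPKM in vehicle and 26.9 and 153 with T3, and at 53.8 and 298 FPKM in the library labelled ATRβKO. Their receptor Ccr7 was at 31.6 and 13.6 FPKM. Cxcl13, of B cell follicles, was at 38.9 and 37.8. Ccl5, a product of T and NK cells, was at 251 and 108 FPKM. Summed markers of T and NK cells were 187, 83.2 and 144 FPKM in the 3 libraries and those of B cells 267, 162 and 236. How much lymph node each pool held was not measured, and its part in these results was not tested.

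Interferon-related genes divided by family. On the list of 79 interferon-induced genes the size rule called 4 higher and none lower. The list's median of 0.01 changed sign under rescaling, from -0.04 to 0.24. Ifi27l2a, above, an interferon-induced gene outside this list, was 3.52-fold lower. The interferon-inducible GTPases, which attack membranes around intracellular pathogens, had their median at 0.60 over 15 members, with 14 above 0 and 3 called higher (2 to 6 under rescaling). Besides Iigp1 these were Gbp10, at 4.48 and 12.1 FPKM, and Igtp, at 26.2 and 53.7. Cxcl9, a chemokine induced by interferon-γ, was at 17.4 and 37.6 FPKM. In the library labelled ATRβKO, Gbp10, Igtp and Cxcl9 were at 3.86, 28.0 and 17.4 FPKM. The Ifi200 genes, DNA sensors of the same wider response, had a median of -0.59 over 10 members with none past 2-fold, and Ifi211 was at 19.5 and 9.34 FPKM. B2m, the light chain of class I molecules, was at 3047 and 3175 FPKM. GTPases of this kind are also made by cells other than immune cells, and which cells carried them was not measured.

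All 9 GTPase genes with a window (100%) held on either strand an interferon element, 2 copies of TTTC with 2 bases between, which STAT and IRF complexes bind, against 3.95% of all genes with a window. It was found in 1.49% of all higher genes and 6.25% of all lower genes with a window. The Igtp window, chr11:58199306-58199605 on the plus strand, is shown with the element in capitals, where it stands as its reverse complement. The motif was chosen after the values were seen.
Igtp: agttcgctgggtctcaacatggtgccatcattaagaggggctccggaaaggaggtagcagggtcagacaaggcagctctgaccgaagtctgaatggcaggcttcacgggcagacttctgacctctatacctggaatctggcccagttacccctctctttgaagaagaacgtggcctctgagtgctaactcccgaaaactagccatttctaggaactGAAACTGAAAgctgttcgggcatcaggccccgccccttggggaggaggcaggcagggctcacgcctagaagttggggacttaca

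**Figure D5:**
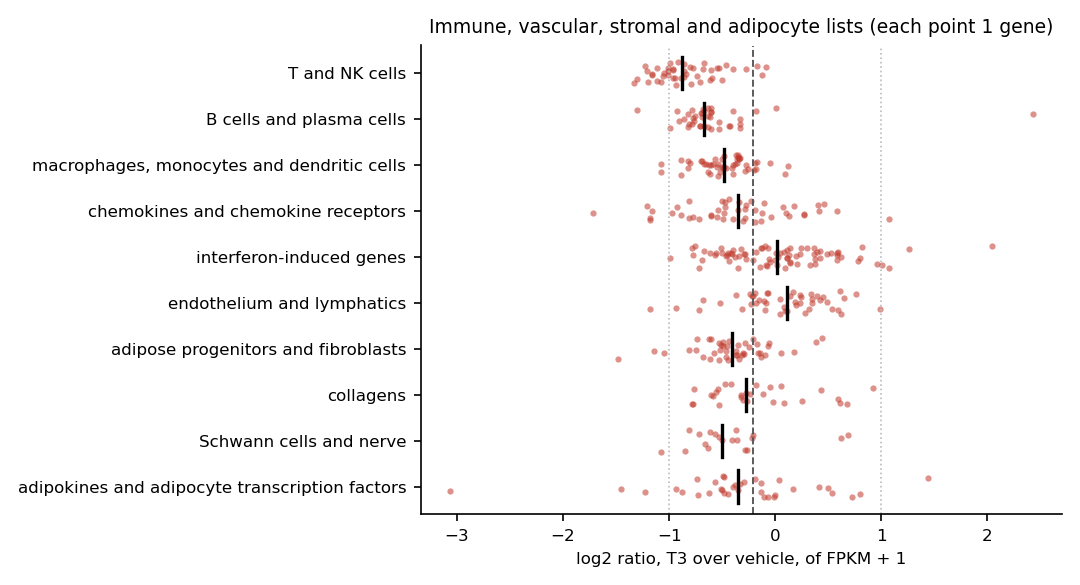
Log2 ratio (T3 over vehicle, floxed, FPKM + 1) of every compared member of 10 immune, vascular, stromal and adipocyte lists, 1 point a gene, with a black bar at each median, a dashed line at the median of all genes (-0.21) and dotted lines at 2-fold. T and NK cell genes lie around -0.87 and endothelial genes around 0.11.

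Vascular and stromal genes stood on opposite sides of the median of all genes. For endothelium and lymphatics the median was 0.11, and of 47 genes 1 was lower by size. Summed endothelial markers were 167 FPKM in vehicle, 220.5 with T3 and 158 in the library labelled ATRβKO, and the part of cell number was not tested. Cldn5, a tight junction protein, was at 44.6 and 76.2 FPKM, Cdh5, the endothelial cadherin, at 58.5 and 92.4, and Kdr, the main VEGF receptor, at 26.2 and 41.0. Gpihbp1, which anchors lipoprotein lipase in capillaries, was at 117 and 178 FPKM. Rbp7, a retinol-binding protein of fat capillaries, was at 42.8 and 85.7 FPKM, with 70.0 in the library labelled ATRβKO. The lower member was Ccl21a, which lymphatic vessels and lymph nodes make. Vcam1 and Ackr1, of venules, were at 23.6 and 11.2 FPKM in vehicle and 14.4 and 6.44 with T3.

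Adipose progenitor and fibroblast genes lay around -0.41, and 3 of 44 were lower (1 to 3 under rescaling). Their summed markers were 365 FPKM in vehicle, 208 with T3 and 496 in the library labelled ATRβKO. Sfrp2, above, Pi16, at 151 and 68.0 FPKM, and Dpp4, at 25.9 and 12.0, mark early progenitors. These 3 stood at 39.95, 133 and 26.2 FPKM in the library labelled ATRβKO. Among 28 collagens none passed 2-fold, and their kinds differed in median but overlapped. For 4 basement membrane chains the median was 0.24, from -0.32 to 0.68, with 1 below 0. For 6 fibril chains it was -0.42, from -0.61 to 0.61, with 2 above 0. The basement membrane chains Col4a1 and Col4a2 were at 191 and 99.4 FPKM in vehicle and 257 and 159 with T3. The fibril chains Col1a1 and Col3a1 were at 167 and 660 FPKM in vehicle, 111 and 454 with T3, and 311 and 1031 in the library labelled ATRβKO. Col5a3, a fibril chain of adipose tissue and muscle, was at 84.2 and 129 FPKM. For Schwann cells and nerve the median was -0.50 over 19 genes. The lower one was Ncmap, a myelin protein, at 5.56 and 2.12 FPKM.

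Among housekeeping machines, cytosolic ribosomal proteins lay around -0.44, with 86 of 90 below 0 and 1 past 2-fold. The proteasome lay around 0.16, with 39 of 46 above 0 and none past 2-fold. The lower ribosomal gene, Rps3a3, is a near-copy of Rps3a and its reads are uncertain. In the unfolded protein and integrated stress response 1 of 38 genes was higher (2.63%, near the 2.3% of all genes). It was Atf5, a transcription factor of the mitochondrial stress response, at 56.4 and 123.45 FPKM. Single genes outside the naming rule, chosen after their values were seen, were Cdkn1a, the cell cycle inhibitor p21, at 15.9 and 36.7 FPKM, and Deptor, an inhibitor of mTOR, at 22.7 and 55.6. Cryab, a small heat shock protein, was at 83.7 and 203 FPKM.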

How the data were processed

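RNA from iWAT was sequenced on an Illumina NovaSeq from TruSeq libraries, per the labels' protocols, and HISAT2, StringTie and the build GRCm39 are named in the submitters' processing notes. The authors deposited 1 table of the vehicle and T3 libraries whose values were taken as FPKM. No header names that unit, and it was inferred from the values and from StringTie. Strand use in counting is not given in the sources used here. FPKM depends on the library total, so very abundant genes lower all others, and short transcripts are measured poorly. Log2 ratios of FPKM plus 1 were computed with Python 3.11.15 (numpy, pandas, scipy) within this table. Depth came from the value of 1 fragment in 984 to 1027 single-exon genes, of which 60.8% to 62.8% fell within 0.1 of whole fragments. Counting intervals are exact binomial at 95%, and the steps were tested on simulated data. Where several IDs share a symbol, the most abundant one stands for it. Gene lists (105) and members were chosen with earlier results of these data known. Named were the 12 genes at each end at 5 FPKM or more, outside lipogenesis, muscle, Ucp1, predicted genes, small RNAs, receptor segments, ribosomal proteins and pseudogenes, and examples among the 2 highest and 2 lowest of each list, of every member of lists of up to 12, with Thrb and Thra. Other genes and the subfamilies (Mup, GTPases, clock outputs, sterol enzymes and the like) were chosen after their values were seen. Promoters come from RefSeq on GRCm38.p6, matched by symbol. Alternatives were other pseudocounts, floors, scalings and size rules.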

Additional observations from a re-analysis of the deposited data

How the results depend on the processing

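Counts of higher and lower genes moved with the settings, against 346 and 598. They were 136 and 140 with a pseudocount of 5, 498 and 1089 with a pseudocount of 0.1, 202 and 309 with a floor of 5 FPKM, 786 and 2111 at 1.5-fold, 68 and 86 at 4-fold, and 150 and 268 without predicted genes, small RNAs, receptor segments and pseudogenes. The higher share of calls was 36.7%, 53.8% after rescaling to a median of 0, 54.5% with trimmed means of M values, 45.3% without the 50 most abundant genes in the totals (410 and 496) and 33.6% without muscle and lipogenesis genes in them (320 and 633). The median of all genes was 0 after the first of these, 0.01 after the second and -0.10 after the third. Of 105 lists, 64 had a median above that of all genes, and 54 to 66 did so under the other settings. For the 46 lists plotted by median, the distance from the median of all genes moved by at most 0.1 in 432 of 460 values. With no floor it changed sign for carboxylesterases and glucuronosyltransferases, from -0.31 to 0.03, and, by small steps, for mitochondrial DNA upkeep (0.04 to -0.06), collagens (-0.07 to 0.03), the unfolded protein response (0.04 to -0.05) and G protein-coupled receptors (-0.06 to 0.01). Of 288 values for the 24 genes at both ends, none changed sign and 9 lost the mark of the size rule. The cause of these differences was not tested, beyond the fewer genes that a floor or a stricter rule leaves. No paired analysis was possible because each group has 1 library. Depth limits weak genes most, and no setting replaces the missing spread between mice.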

Other observations

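Small nucleolar and Cajal body RNA genes gave the densest calls of the 105 lists, 3 higher and 6 lower of 11 compared, and their short transcripts are measured poorly in FPKM. Of 117 skeletal muscle genes 65 were lower and 1 was higher, around a median of -1.04 on the log2 scale. Zinc finger Zfp genes had 287 of 340 values below 0 with 3 lower and 1 higher, a median of -0.26 near that of all genes.

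A few abundant or single genes not described above are given as values, chosen after they were seen. Actb, the cytoplasmic actin often used as a reference gene, was at 1040.2 FPKM in vehicle, 493 with T3 and 875 in the library labelled ATRβKO, and Gapdh, another such gene, at 1041, 1970.1 and 1165 FPKM. Anxa8 was at 7.27, 1.72 and 6.61 FPKM. Il31ra, a cytokine receptor subunit, was at 263, 519 and 719 FPKM, so both T3 libraries lay above vehicle. Haemoglobin transcripts were at 602, 808 and 903 FPKM for Hbb-bs, whose near-identical copies can share reads.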
